A study of Mus musculus with 9 samples.

Results

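The 8 genes Gad1, Gad2, Slc32a1, Slc6a11, Slc6a13, Abat, Gabbr1 and Gabbr2, which make, package, take up, break down and sense the transmitter GABA outside its fast chloride channels, were followed in the hippocampus of mice that had inhaled linalyl acetate (LA). The rule that picked them used gene symbols and no measured value, though they were chosen with earlier results of these data known. Each of the 8 matched 1 transcript cluster, the unit of the array that stands for a gene, out of 22206 on the array. All 8 were above the filter on low signals (mean log2 signal over the 9 arrays above 5.98), which kept 13323 clusters.

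LA is a volatile ester found in the essential oil of lavender. Male ICR mice, an outbred strain, aged 8 weeks, were housed singly and exposed by whole-body inhalation for 7 days to the vehicle 1% Tween 80, to 1% LA or to 10% LA, and their immobility was then scored by tail suspension after 30 min in the vapour. Hippocampal RNA of each group was read on 3 Clariom S mouse arrays, 9 in all. The labels number the samples but do not say whether a sample is 1 mouse or a pool, so p-values here measure the spread between these samples. Groups were taken from the sample titles. The description field of 5 samples (the 3 of vehicle and replicates 1 and 2 of 1% LA) tells instead of oral saline or oleacein followed by an injection, and 3 of the 5 name the bacterial endotoxin LPS. The series' design text names a human cell line, while the clusters are those of the mouse array.

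GABA is the main inhibitory transmitter of the brain. Interneurons make it from glutamate with the decarboxylases encoded by Gad1 and Gad2 and load it into vesicles with the transporter encoded by Slc32a1. After release it is cleared by plasma membrane transporters on neurons and on astrocytes, and the mitochondrial transaminase encoded by Abat degrades it. GABA outside the synapse also acts on GABA-B receptors, which are pairs of a Gabbr1 and a Gabbr2 subunit and signal through G proteins to potassium and calcium channels.

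Values are log2 signals of the authors' signal table unless the series matrix, a second deposited table of the same arrays, is named. The columns of vehicle replicate 3 in the 2 tables correlated at r = 0.981 across clusters and differed by more than 1 log2 unit at 1778 clusters. Each of the other 8 arrays correlated at 0.9993 or above and had at most 1 such cluster. Among the 8 genes the largest gap between the tables was 1.14 log2 for vehicle replicate 3 and at most 0.25 for the other arrays, so differences from vehicle of the 8 genes are given from both tables. Array medians lay between 6.84 and 6.88 in the signal table. Of 13 markers of the hippocampal subfields on the array, 12 were above the filter.

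In both LA groups the astrocytic GABA transporter Slc6a11 had higher signals than in vehicle, and the other 7 genes overlapped vehicle in the signal table. None of the 8 genes passed the test over all clusters (limma with Benjamini-Hochberg adjustment, threshold 0.05) at 1% LA, at 10% LA, between the doses or among the 3 groups. In each of these comparisons 0% of the 13323 clusters passed, in the signal table and in the series matrix. At an unadjusted p under 0.05, 1 of the 8 genes was past the threshold at 1% LA, against 11.9% of all clusters, and 1 of 8 at 10% LA, against 13.9%. Both times it was Slc6a11, and 1 of 8 is 12.5%, near those background shares. Both doses were set against the same 3 vehicle arrays, so their differences are not independent.

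The promoter of Slc6a11 is shown because all 6 of its LA arrays lay above vehicle in both tables. That of Slc6a13 is shown because it encodes the related GABA transporter of the same family, and its LA groups overlapped vehicle. Both sequences are from RefSeq (assembly GRCm38.p6, plus strand), 5′ to 3′, and cover the 250 bases before the annotated start. RefSeq gives 3 starts for Slc6a13, and the most upstream is shown. The first lies at chr6:114130991-114131240 and the second at chr6:121300038-121300287. Capitals mark GGGCGG or the same letters read on the other strand, the core of the GC box.
Slc6a11: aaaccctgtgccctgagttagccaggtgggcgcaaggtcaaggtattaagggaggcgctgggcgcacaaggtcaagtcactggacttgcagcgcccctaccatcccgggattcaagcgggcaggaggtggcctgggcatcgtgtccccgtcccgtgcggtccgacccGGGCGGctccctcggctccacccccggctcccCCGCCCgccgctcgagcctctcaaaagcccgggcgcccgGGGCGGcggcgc
Slc6a13: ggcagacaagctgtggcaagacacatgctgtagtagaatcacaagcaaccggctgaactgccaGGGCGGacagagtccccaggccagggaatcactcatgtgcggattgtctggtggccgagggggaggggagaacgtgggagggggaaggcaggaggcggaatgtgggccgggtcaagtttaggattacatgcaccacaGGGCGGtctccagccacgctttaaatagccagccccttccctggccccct
The Slc6a11 window held 3 GC boxes, 25 CpG dinucleotides and 71.2% G and C. The Slc6a13 window shown held 2 GC boxes, 9 CpG dinucleotides and 60.8% G and C. At its starts not shown, the windows held 0 GC boxes, 6 and 2 CpG dinucleotides, and 51.6% and 49.6% G and C. Of 32851 windows of this length in the table, 32.7% held a GC box on either strand, the median number of CpG dinucleotides was 6 and the median G and C content was 52.4%. Neither window shown held TATAAA or CCAAT on either strand, which 12.4% and 33.8% of all windows did. Of the Slc6a13 windows not shown, 1 held CCAAT. Among the other members, the windows held 17 (Gad1), 13 (Gad2), 12 (Slc32a1), 16 (Gabbr1) and 37 (Gabbr2) CpG dinucleotides. Their GC boxes numbered 1, 0, 0, 2 and 2 in that order, and Abat had no window. A match of letters is a description of the window and does not show binding. Any link of the windows to the LA differences was not tested.

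Slc6a11 (TC0600001266.mm.2) encodes the plasma membrane GABA transporter found chiefly on astrocyte processes. In vehicle its log2 signals were 12.13, 12.16 and 11.69. At 1% LA they were 12.66, 12.49 and 12.48, and at 10% LA 12.83, 12.41 and 12.81. All 6 LA arrays lay above all 3 vehicle arrays, which 3.04% of the 13323 clusters also showed, and the LA groups overlapped each other. The group means were 11.99 ± 0.26 in vehicle, 12.54 ± 0.10 at 1% LA and 12.68 ± 0.24 at 10% LA (SD, n = 3 each). The log2 difference from vehicle at 1% LA was 0.55 (SE 0.19, 95% interval 0.13 to 0.97), a 1.46-fold signal with an adjusted p of 0.368 by limma. At 10% LA it was 0.69 (SE 0.19, 95% interval 0.27 to 1.11), a 1.61-fold signal with an adjusted p of 0.312. Unadjusted, limma's p was 0.0149 at 1% LA and 0.00397 at 10% LA. Among the 3 groups the moderated F test gave Slc6a11 an unadjusted p of 0.00939 and an adjusted p of 0.465. It was 1 of 8 under an unadjusted p of 0.05 in that test, against 9.99% of clusters, and in the series matrix 0 of 8 were, against 3.91%.

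The lowest Slc6a11 signal was that of vehicle replicate 3, the array on which the 2 tables disagree. In the series matrix the vehicle values were 12.15, 12.14 and 12.32, against 12.67, 12.44 and 12.49 at 1% LA and 12.79, 12.41 and 12.82 at 10% LA. All 6 LA arrays again lay above all 3 vehicle arrays, which 1.45% of clusters did in that table. The differences were smaller there: 0.33 (SE 0.18, 95% interval -0.0550 to 0.71, adjusted p = 0.971) at 1% LA and 0.47 (SE 0.18, 95% interval 0.0845 to 0.85, adjusted p = 0.837) at 10% LA. Without vehicle replicate 3 the signal table gave 0.40 (unadjusted p = 0.0685) and 0.54, and the series matrix 0.39 and 0.53. The authors' deposited table gave Slc6a11 a fold of 1.26 with an FDR p of 0.4688 at 1% LA and of 1.6 with an FDR p of 0.411 at 10% LA. The averages behind those folds differ from the arithmetic means of the arrays.

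**Figure D1:**
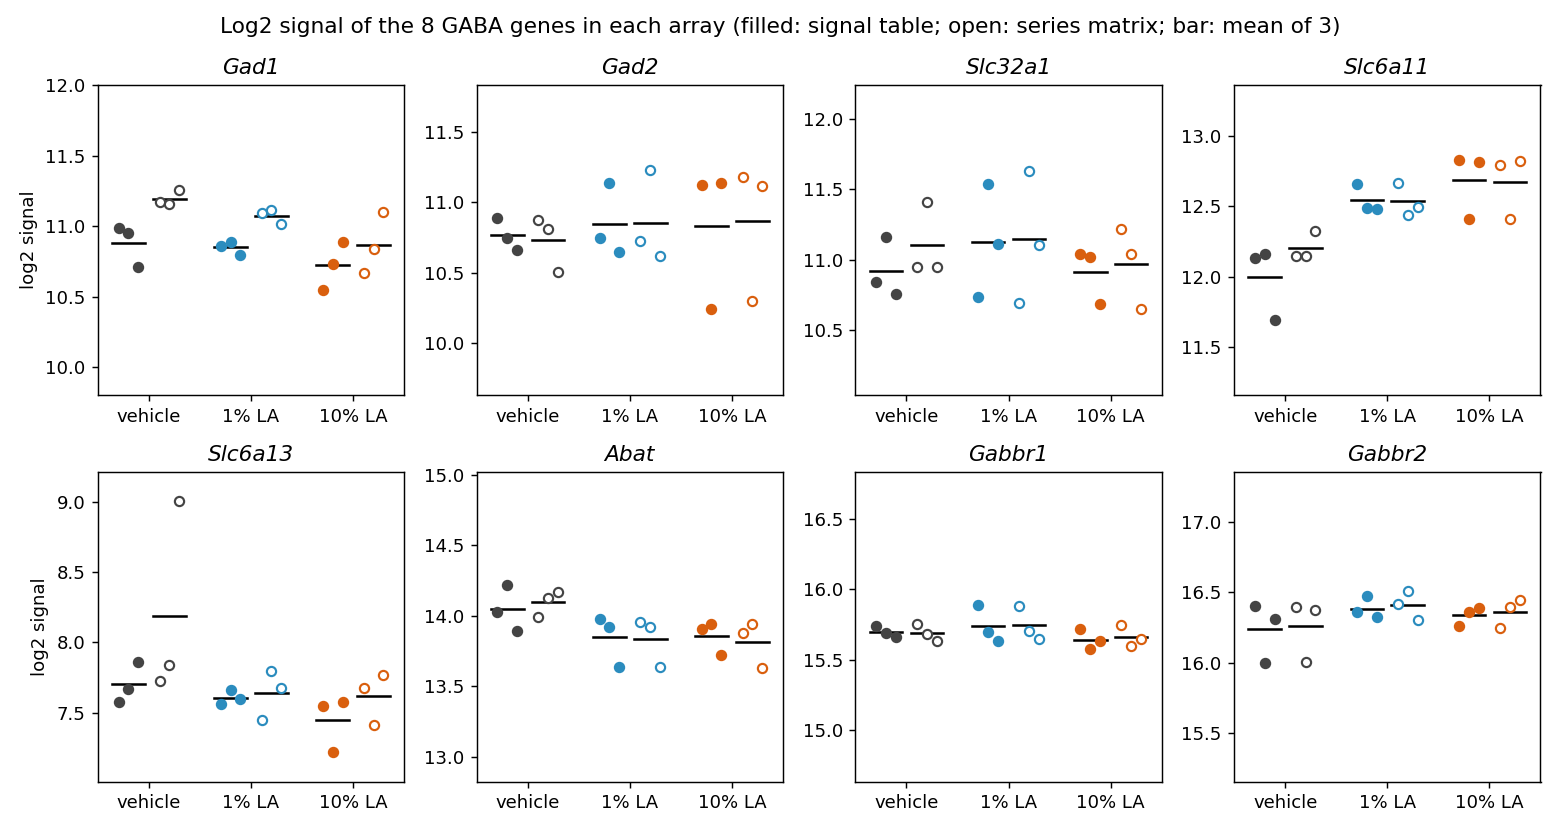
Log2 signal of the 8 genes on each of the 9 arrays, from the signal table and from the series matrix, by group, with 1 point per array and the group mean. The 6 LA points of Slc6a11 lie above its 3 vehicle points in both tables, and the vehicle points of Slc6a13 differ between the tables through replicate 3.

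Levels of 15 astrocyte markers, all above the filter, were set beside Slc6a11. Their mean log2 signal per array ran from 12.14 to 12.53 in vehicle, from 12.42 to 12.46 at 1% LA and from 12.43 to 12.58 at 10% LA. The same ranges in the series matrix were 12.52 to 12.56, 12.45 to 12.49 and 12.45 to 12.59. The lowest of these 9 levels in the signal table, 12.14, was that of vehicle replicate 3, where Slc6a11 was also lowest. Of the 15 markers, 0 passed the test at either dose. At an unadjusted p under 0.05, 0 were higher and 1 lower at 1% LA, and 2 were higher and 0 lower at 10% LA. Of all clusters, 11.9% and 13.9% were under that p in either direction. With the astrocyte level as a covariate, chosen after seeing the data, the Slc6a11 difference was 0.56 at 1% LA and 0.53 at 10% LA. In whole tissue, fewer cells of a type and less RNA per cell cannot be told apart.

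Levels of other glial markers were also set beside Slc6a11, and the microglial level of both LA groups overlapped vehicle. The mean log2 level of 13 oligodendrocyte and precursor markers, all above the filter, ran from 10.62 to 11.40 in vehicle, with replicate 3 the lowest, from 11.43 to 11.73 at 1% LA and from 11.57 to 12.03 at 10% LA. All 6 LA arrays lay above vehicle there, as for Slc6a11. The vehicle range in the series matrix was 11.41 to 11.81, which overlapped both LA groups (11.44 to 11.73 and 11.59 to 12.06). The level of 13 microglial markers, all above the filter, ran from 7.69 to 8.27 in vehicle, with replicate 3 the lowest, from 8.20 to 8.42 at 1% LA and from 8.15 to 9.01 at 10% LA. Of the 13, 11 had a positive difference at 1% LA and 13 at 10% LA, and 9 and 10 did so in the series matrix. None of either list passed the test. At an unadjusted p under 0.05, 4 oligodendrocyte markers were higher at 1% LA and 6 at 10% LA. Of the microglial markers 4 and 5 were higher, and 0 of either list were lower, against 11.9% and 13.9% of all clusters. In the series matrix, oligodendrocyte markers had 4 higher and 1 lower at 1% LA, and 1 higher and 0 lower at 10% LA. The microglial markers had 1 and 5 higher there, and 0 lower, against 4.81% and 5.74%. The part of oligodendrocytes and microglia in the Slc6a11 values was not tested.

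Markers of the choroid plexus had higher levels at 1% LA than in vehicle in the signal table, and their levels varied between arrays. The mean log2 signal of the 18 above the filter, of 20 on the array, ran from 6.81 to 9.49 in vehicle, from 10.16 to 11.14 at 1% LA and from 7.81 to 10.75 at 10% LA. The highest vehicle level, 9.49, was on replicate 2, where Slc6a11 was 12.16. The vehicle range in the series matrix was 6.80 to 10.80, with replicate 3 the highest. The LA ranges there were 10.20 to 11.14 and 7.83 to 10.77, which overlapped vehicle. None of the 18 passed the test. At an unadjusted p under 0.05, 18 were higher at 1% LA and 6 at 10% LA, against 11.9% and 13.9% of all clusters. The series matrix had 1 and 0 higher, against 4.81% and 5.74%. None was lower under that p at either dose in either table. With the mean of these markers, each first scaled over the 9 arrays, added to the fit, the Slc6a11 difference was 0.20 at 1% LA and 0.50 at 10% LA. The part of choroid plexus in the Slc6a11 values was otherwise not tested.

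Slc6a13 (TC0600001370.mm.2) encodes the related transporter of GABA and taurine, known in brain mainly from the leptomeninges and vessels. Its signals were 7.58, 7.67 and 7.86 in vehicle, 7.56, 7.66 and 7.60 at 1% LA and 7.55, 7.22 and 7.58 at 10% LA. The lowest value was that of 10% LA replicate 2, and each LA group overlapped vehicle. The log2 difference was -0.0967 (SE 0.17, adjusted p = 0.837) at 1% LA and -0.25 (SE 0.17, adjusted p = 0.509) at 10% LA. In the series matrix vehicle replicate 3 stood at 9.0, against 7.72 and 7.84 for the other vehicle arrays and 7.41 to 7.80 for the LA arrays. The differences there were -0.55 (SE 0.29, adjusted p = 0.971) and -0.57 (SE 0.29, adjusted p = 0.837), and without vehicle replicate 3 they were -0.14 and -0.16.

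Markers of the meninges differed between the tables on the same array. The mean log2 level of 13 meningeal and fibroblast markers above the filter, of 19 on the array, was 7.31 for vehicle replicate 3 in the signal table and 8.70 in the series matrix. In the signal table the level ran from 7.30 to 7.92 in vehicle, from 8.16 to 8.63 at 1% LA and from 7.19 to 8.38 at 10% LA. None of the 13 passed the test. At an unadjusted p under 0.05, 7 were higher and 0 lower at 1% LA, against 11.9% of all clusters. At 10% LA 0 were higher and 0 lower, against 13.9%. The series matrix had 0 higher and 0 lower at 1% LA, and 0 higher and 1 lower at 10% LA, against 4.81% and 5.74%. The part of meningeal tissue in the Slc6a13 values was not tested.

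**Figure D2:**
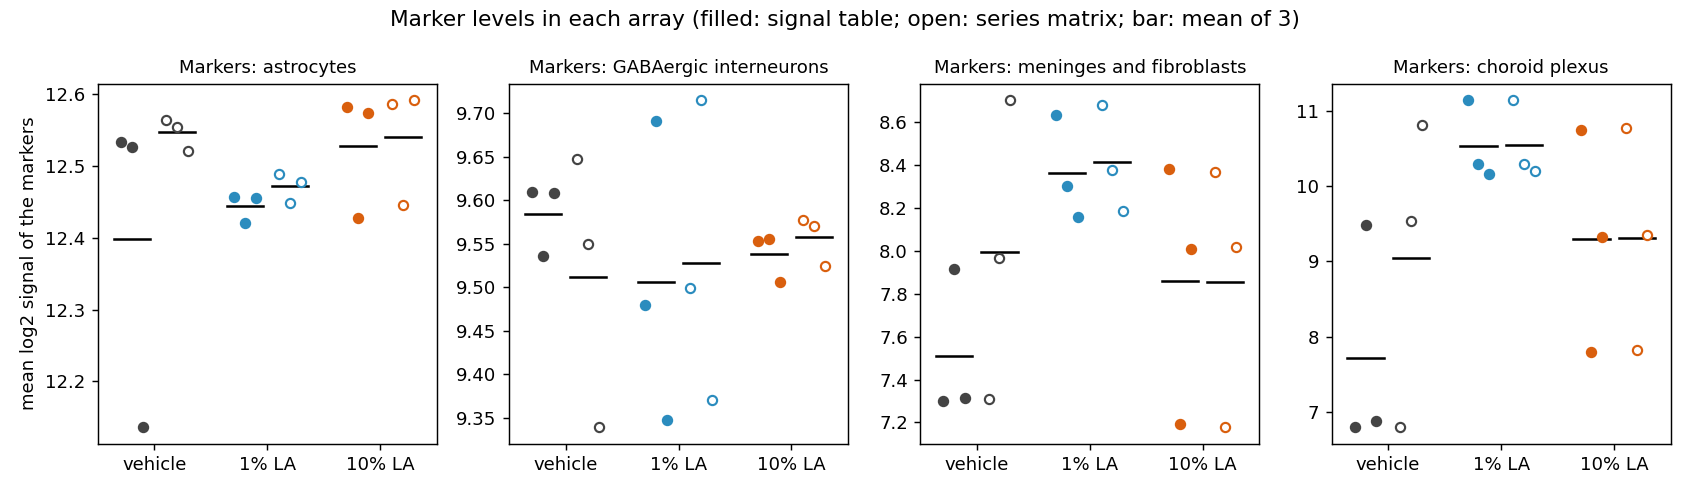
Mean log2 signal of marker lists (vertical axis) on each of the 9 arrays by group, from the signal table and the series matrix. Astrocyte levels lie within 12.14 to 12.59 on all arrays, and choroid plexus levels span 6.80 to 11.14. Vehicle replicate 3 differs between the signal table and the series matrix in each list shown. Its levels there are 12.14 and 12.52 for astrocytes and 9.61 and 9.34 for interneurons. They are 7.31 and 8.70 for meninges and 6.88 and 10.80 for choroid plexus.

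The synthetic enzymes overlapped between the groups in the signal table. Gad1 (TC0200001023.mm.2), the decarboxylase present throughout the cell that supplies most basal GABA, had signals of 10.99, 10.95 and 10.71 in vehicle, 10.86, 10.89 and 10.80 at 1% LA and 10.55, 10.73 and 10.89 at 10% LA. The difference from vehicle was -0.0333 (SE 0.17, adjusted p = 0.948) at 1% LA and -0.16 (SE 0.17, adjusted p = 0.676) at 10% LA. In the series matrix vehicle replicate 3 was higher, at 11.26, and the vehicle values of 11.17, 11.16 and 11.26 all lay above the LA values of 10.67 to 11.12. The differences in that table were -0.12 at 1% LA and -0.33 (SE 0.17, adjusted p = 0.837) at 10% LA. Gad1 therefore separated from vehicle in the series matrix but not in the signal table.

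Gad2 (TC0200000347.mm.2) encodes the decarboxylase concentrated at nerve terminals. Its signals were 10.89, 10.75 and 10.66 in vehicle, 10.75, 11.14 and 10.65 at 1% LA and 11.12, 10.24 and 11.14 at 10% LA. The 10% LA group held both the lowest and one of the highest values of the 9 arrays. The differences from vehicle were 0.08 (SE 0.25, 95% interval -0.46 to 0.62) and 0.0667 (SE 0.25, 95% interval -0.48 to 0.61), with adjusted p of 0.914 and 0.925. From the series matrix they were 0.12 and 0.13 (SE 0.25 each), again with overlapping groups. The pooled SD within groups was 0.34 for Gad2 and 0.13 for Gad1, against a median of 0.26 over all clusters.

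Slc32a1 (TC0200002437.mm.2), the vesicular GABA transporter, had signals of 10.84, 11.16 and 10.76 in vehicle, 10.74, 11.54 and 11.11 at 1% LA and 11.04, 11.02 and 10.69 at 10% LA. All 3 groups overlapped, and 1% LA replicate 2 was the highest array. The difference was 0.21 (SE 0.22, adjusted p = 0.709) at 1% LA and -0.00333 (SE 0.22, adjusted p = 0.995) at 10% LA, and 0.04 and -0.13 (SE 0.25 each) from the series matrix. Markers of interneurons, the cells that use these 3 genes, were measured beside them. The mean log2 signal of 20 markers above the filter, of 27 on the array, ran from 9.54 to 9.61 in vehicle, 9.35 to 9.69 at 1% LA and 9.51 to 9.56 at 10% LA. The ranges in the series matrix were 9.34 to 9.65, 9.37 to 9.72 and 9.52 to 9.58. The other 7, Lhx6 among them, were below the filter. Of the 20 interneuron markers 0 passed the test. At an unadjusted p under 0.05, 1 was higher and 2 lower at 1% LA, and 2 were higher and 0 lower at 10% LA. The shares of all clusters under that p were 11.9% and 13.9%.

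Levels of markers of the striatum, a region rich in GABA neurons, also differed between arrays. The mean log2 level of 8 striatal and basal forebrain markers above the filter, of 12 on the array, was 9.56 on 1% LA replicate 2 and 9.42 on 10% LA replicate 1, and 8.33 to 8.71 on the other 7 arrays. The same levels in the series matrix were 9.55, 9.40 and 8.34 to 8.70. Slc32a1 was highest on the first of these arrays, and Gad2 was above 11 on both and on 10% LA replicate 3. The part of such tissue in the Gad2 and Slc32a1 values was not tested.

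Abat (TC1600000089.mm.2), the transaminase that degrades GABA, had signals of 14.03, 14.22 and 13.89 in vehicle, 13.98, 13.92 and 13.64 at 1% LA and 13.91, 13.94 and 13.72 at 10% LA. The LA groups overlapped vehicle through vehicle replicate 3. The difference was -0.20 (SE 0.17, 95% interval -0.58 to 0.18) at 1% LA and -0.19 (SE 0.17, 95% interval -0.57 to 0.19) at 10% LA, with adjusted p of 0.645 and 0.629. In the series matrix the vehicle values were 13.99, 14.13 and 14.17, above all 6 LA values of 13.63 to 13.96. The differences there were -0.26 (adjusted p = 0.971) and -0.28 (adjusted p = 0.853). Of all clusters 1.77% had all 6 LA arrays below all 3 vehicle arrays in the series matrix, as Gad1 and Abat did, and 3.23% in the signal table, as 0 of the 8 genes did.

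Both receptor subunits had small differences. Gabbr1 (TC1700000754.mm.2), the subunit that binds GABA, had signals of 15.74, 15.69 and 15.66 in vehicle, 15.89, 15.70 and 15.63 at 1% LA and 15.72, 15.58 and 15.63 at 10% LA. Gabbr2 (TC0400002606.mm.2), the subunit that couples to the G protein, had 16.40, 16.00 and 16.31 in vehicle, 16.36, 16.47 and 16.32 at 1% LA and 16.26, 16.36 and 16.39 at 10% LA. All groups overlapped for both subunits. The differences at 1% LA were 0.0433 (SE 0.15, adjusted p = 0.927) for Gabbr1 and 0.15 (SE 0.17, adjusted p = 0.728) for Gabbr2, and at 10% LA -0.0533 (SE 0.15, adjusted p = 0.901) and 0.10 (SE 0.17, adjusted p = 0.808). Their 95% intervals at 10% LA ran from -0.39 to 0.29 and from -0.26 to 0.46. The series matrix gave 0.06 and -0.03 for Gabbr1 and 0.15 and 0.10 for Gabbr2, with overlapping groups. The pooled SD within groups was 0.14 for Gabbr2 and 0.0909 for Gabbr1, the smallest of the 8, and 1.59% of clusters had a smaller one than Gabbr1.

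Counted together, 1 of the 8 genes had groups that did not overlap at 1% LA in the signal table, against 14.4% of clusters, and 1 of 8 at 10% LA, against 14.6%. The series matrix had 3 of 8 at each dose (Slc6a11, Gad1 and Abat), against 9.42% and 10.4% of clusters. At 1% LA 0 of 8 were there under an unadjusted p of 0.05, against 4.81%, and 1 of 8, Slc6a11, at 10% LA, against 5.74%. The median difference of the 8 genes was 0.0617 at 1% LA and -0.0283 at 10% LA, beside -0.00333 and -0.0167 over all clusters. It was 0.0484 and -0.0805 in the series matrix. The study's design text counts a gene where its linear fold exceeds 2 at an unadjusted p under 0.05. By that rule 0 of the 8 counted at either dose or between the doses, against 1.4% of clusters at 1% LA, 1.09% at 10% LA and 0.0751% between the doses.

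**Figure D3:**
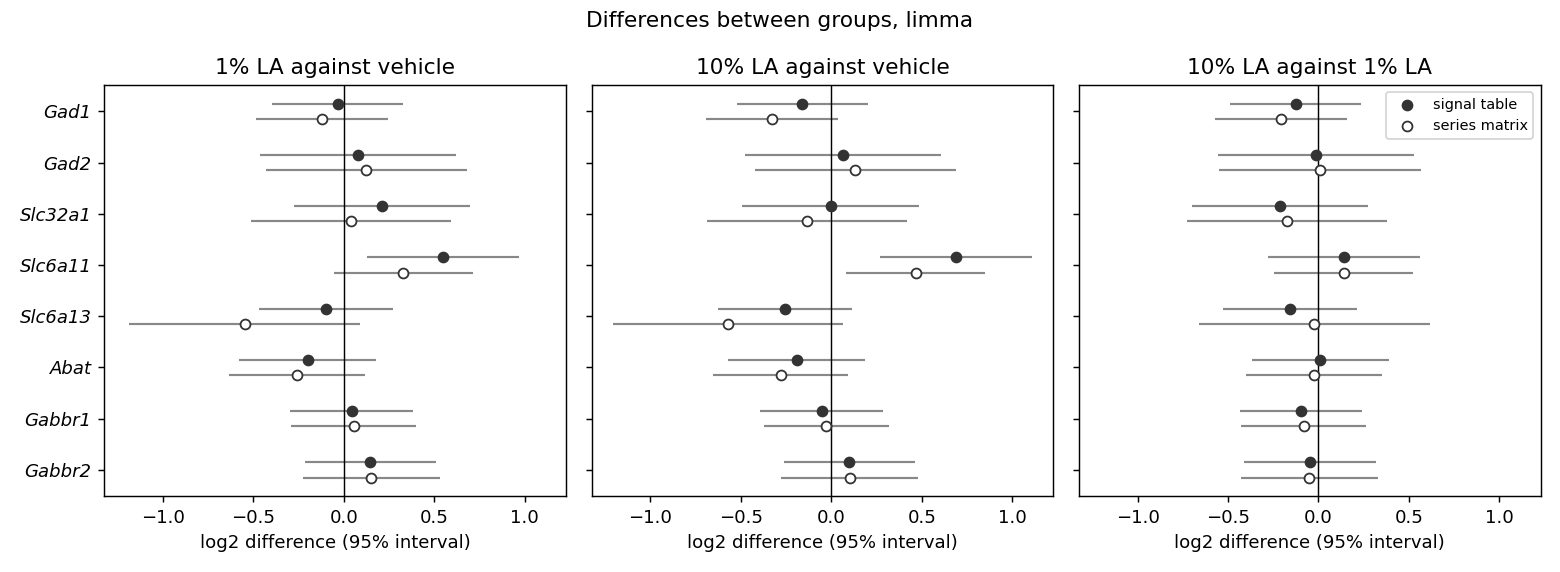
Log2 differences of the 8 genes with 95% intervals (limma, horizontal axis) in 3 comparisons, from the signal table and the series matrix. The Slc6a11 intervals against vehicle lie above 0 in the signal table, at 0.13 to 0.97 and 0.27 to 1.11, while its series matrix interval at 1% LA, -0.0550 to 0.71, includes 0. The intervals of the other 7 genes include 0.

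The 2 doses were not told apart by any of the 8 genes. Differences of 10% LA against 1% LA ran from -0.21 for Slc32a1 to 0.14 for Slc6a11 (95% interval -0.28 to 0.56), with an adjusted p of 0.9999 by limma for each. Neither an unadjusted p under 0.05, which 2.03% of clusters had, nor groups that did not overlap, which 6.24% had, occurred among the 8. The series matrix also had 0 of 8 on both counts, against 2.37% and 6.82% of clusters. The 95% intervals of the 7 genes other than Slc6a11 reached from -0.70 to 0.53, so differences within those bounds are not excluded.

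Other genes of GABA synthesis, release, uptake and breakdown were described from a list of 17, of which 15 were on the array and 13 above the filter. None passed the test at any comparison (limma). At an unadjusted p under 0.05, 3 were higher and 1 lower at 1% LA, and 3 higher and 0 lower at 10% LA, against 11.9% and 13.9% of all clusters. The series matrix had 1 higher and 1 lower at 1% LA, and 1 higher and 0 lower at 10% LA, against 4.81% and 5.74%. The median difference was 0.24 at 1% LA and 0.26 at 10% LA in the signal table, and 0.0852 and 0.11 in the series matrix. Those with the smallest p at 1% LA included Aldh9a1, an aldehyde dehydrogenase of the putrescine route to GABA (0.75, SE 0.22, adjusted p = 0.356) and Slc38a3, a glutamine transporter of astrocytes (1.16, SE 0.35, adjusted p = 0.356). Those at 10% LA included Maob, a monoamine oxidase of the same route (0.57, SE 0.22, adjusted p = 0.319), and Slc38a3 (0.81, SE 0.35, adjusted p = 0.345).

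The Slc38a3 log2 signals were 9.67, 9.75 and 8.62 in vehicle, 10.72, 10.10 and 10.71 at 1% LA and 10.77, 9.55 and 10.16 at 10% LA. The 1% LA arrays lay above vehicle, and the 10% LA arrays overlapped it. Of all clusters, 14.4% had groups that did not overlap at 1% LA, in either direction. The size of the Slc38a3 differences changed with vehicle replicate 3, which read 8.62 in the signal table and 10.41 in the series matrix. In the series matrix the differences were 0.55 and 0.21, and both LA groups overlapped vehicle. The series matrix also gave 0.50 (SE 0.24) for Aldh9a1 at 1% LA and 0.28 (SE 0.25) for Maob at 10% LA. Aldh5a1 encodes the enzyme that acts after Abat. Its difference at 1% LA, added after its values were seen, was -0.38 (SE 0.22, adjusted p = 0.484 by limma). In the series matrix the Aldh5a1 difference was -0.60 (SE 0.16, adjusted p = 0.971 by limma). Between the doses the smallest p belonged to Aldh9a1 (-0.48), Aldh5a1 (0.34) and Maob (0.33), each with an adjusted p of 0.9999.

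Partners and effectors of the GABA-B receptor came from a list of 27, of which 24 were on the array and 21 above the filter. None passed the test, and the median difference was -0.0600 at 1% LA and -0.0833 at 10% LA. At an unadjusted p under 0.05, 1 was higher and 1 lower at 1% LA, and 1 higher and 3 lower at 10% LA, against 11.9% and 13.9% of all clusters. The series matrix had 0 higher and 0 lower at both doses, against 4.81% and 5.74%, with medians of -0.00163 and -0.0503. Cacna1a, the pore subunit of the presynaptic P/Q-type calcium channel, had the smallest p at both doses, with -0.49 (SE 0.18, adjusted p = 0.368) and -0.54 (SE 0.18, adjusted p = 0.312). Kctd16, an auxiliary subunit of the receptor, followed with 0.71 (SE 0.30, adjusted p = 0.394) and 0.80 (SE 0.30, adjusted p = 0.319). Its vehicle replicate 3 read 10.65 in the signal table and 11.44 in the series matrix, where the differences were 0.42 (SE 0.29) and 0.52 (SE 0.29). The third was Gng2, a G protein gamma subunit, at 1% LA (0.47, SE 0.25) and Kcnj9, a subunit of the potassium channel the receptor opens, at 10% LA (-0.80, SE 0.33). From the series matrix these were 0.31 (SE 0.24) for Gng2 and -0.41 (SE 0.30) for Kcnj9, whose vehicle replicate 3 read 10.67 in the signal table and 9.56 in the series matrix. The remaining lower gene at 10% LA, named after its values were seen, was Cacna1b (-0.56, SE 0.26, and -0.35, SE 0.24, from the series matrix), the pore subunit of the N-type calcium channel.

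The Cacna1a signals were 13.02, 13.15 and 13.15 in vehicle, 12.57, 12.62 and 12.67 at 1% LA and 12.27, 12.83 and 12.60 at 10% LA. All 6 LA arrays lay below vehicle in the signal table, which 3.23% of all clusters also showed. In the series matrix vehicle replicate 3 read 12.71, within the range of the LA arrays, and the differences there were -0.35 and -0.37. Between the doses the smallest p in this list belonged to Gnai1 (-0.25), an inhibitory G protein alpha subunit, Cacna1b (-0.26) and App (-0.18), the amyloid precursor protein, whose shed part binds the receptor.

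**Figure D4:**
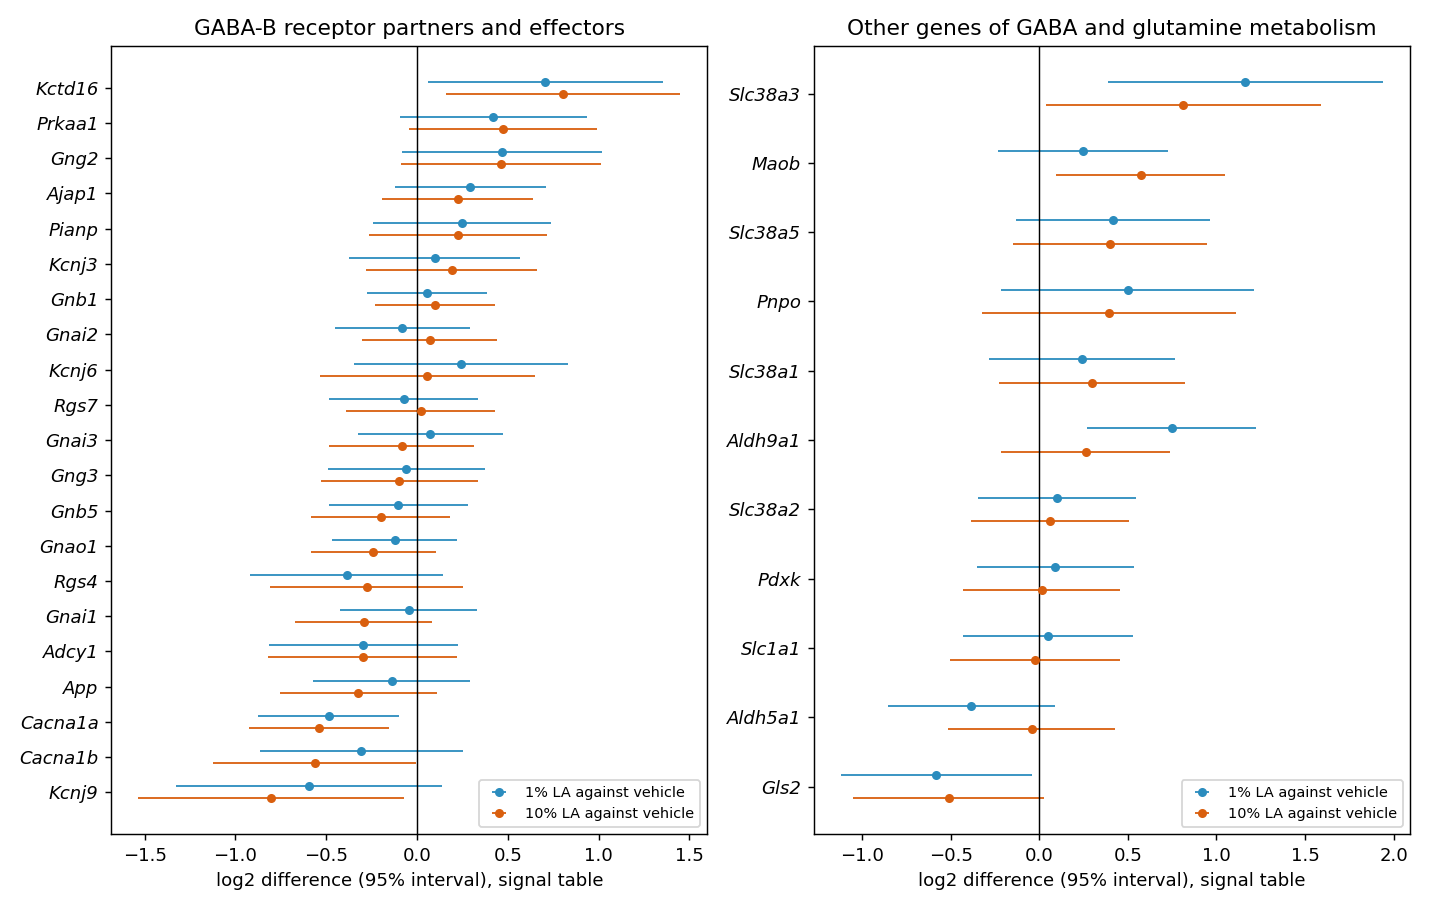
Log2 differences from vehicle (limma, horizontal axis) of the other genes of GABA metabolism and of GABA-B receptor partners above the filter, apart from those not reported here, at 1% LA and 10% LA, in the signal table. Aldh9a1 and Slc38a3 lie farthest to the right at 1% LA at 0.75 and 1.16, and Cacna1a lies at -0.49 and -0.54.

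The 8 genes did not move together. Over the 9 arrays the 28 pairs had correlations from -0.54 to 0.44 with a median of 0.0925 in the signal table, and from -0.65 to 0.52 in the series matrix. For each gene the most similar patterns among 11720 other clusters (leaving out clusters with several symbols, predicted and histone genes, and receptors of smell and taste) were found by correlation over the same 9 arrays, which share the group differences and vehicle replicate 3. For Slc6a11 they were Nrp2 (r = 0.970) and Ninj1 (r = 0.965), which stood at 0.854 and 0.913 in the series matrix. For Slc6a13 they were Kiss1r (r = 0.981) and Fam118a (r = 0.969), which stood at -0.271 and 0.532 in the series matrix, so the first match was lost there. Gad1 was most like Ankdd1b (r = 0.906, and 0.884 in the series matrix) and Mtx1 (0.895 and 0.508). Gad2 was most like Arhgap6 (0.919 and 0.972) and Sult1a1 (0.913 and 0.824). Slc32a1 was followed by Cttnbp2nl (0.944 and 0.815) and Pnma1 (0.923 and 0.913), and Abat by Msi1 (0.968 and 0.962) and Zfp316 (0.946 and 0.626). Gabbr1 was nearest to Ndufa7 (0.918 and 0.930) and Dgat2 (0.917 and 0.752), and Gabbr2 to Scaf8 (0.965 and 0.963) and Bahd1 (0.959 and 0.888). With 11720 candidates and 9 arrays, correlations of this size are a description and were not tested.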

How the data were processed

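Hippocampal RNA from 9 samples was measured on Clariom S mouse arrays, with 3 in each group and groups taken from the sample titles. The deposited signal table holds log2 signals, which the authors normalized by signal space transformation robust multi-chip analysis with Transcriptome Analysis Console 4.0.2, per the design text in the labels. A second deposited table, the series matrix, holds the authors' log2 values per probe set. The authors' deposited comparison tables hold signed linear fold values with p-values and FDR p-values. Promoter sequences come from RefSeq.

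Log2 values were used as deposited. limma 3.58.1 (R 4.3.3; lmFit and eBayes) was fitted to all 9 arrays with a mean per group. Clusters above the 40th percentile of mean signal (5.98) were kept, with Benjamini-Hochberg adjustment over those 13323 and a threshold of 0.05. The script was tested on simulated data. The 3 arrays per group limit the precision: the median SE of a log2 difference was 0.21. Replicate numbers did not pair the samples (the check is given with the alternatives).

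The 8 genes and the lists (15 lists, 229 of 237 symbols on the array) were chosen with earlier results of these data known. The named genes were the 8, the 2 most similar clusters to each, the 3 list members with the smallest p per comparison, and marker lists by their summed level. Aldh5a1 at 1% LA and Cacna1b at 10% LA were added after their values were seen. Some list members are counted but not reported here. Alternatives were a leave-one-out fit, other filters, scalings, covariates, the series matrix and a replicate block. Each marker level used as a covariate was the mean of its markers, each first scaled over the arrays. Where a symbol had several clusters, the brightest was used.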

Additional observations from a re-analysis of the deposited data

How the results depend on the processing

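The Slc6a11 difference kept its sign under every alternative run, from 0.20 to 0.63 at 1% LA and from 0.44 to 0.83 at 10% LA, with adjusted p from 0.119 to 0.971 and from 0.0682 to 0.837. No member passed the threshold under any alternative (24 differences with 573 alternatives and 8 F tests with 183). The replicate numbers paired nothing: same-numbered samples correlated from -0.17 to 0.17, and 0 of 9 arrays were closest to their own number. With a replicate block, Slc6a11 gave 0.55 and 0.69 (adjusted p 0.362 and 0.311). The count of clusters passing over the whole array, 0 in each comparison, ranged when 1 array was left out from 0 to 222 at 1% LA (without vehicle replicate 1: 222, without vehicle replicate 2: 1), from 0 to 533 at 10% LA (533 and 3) and from 0 to 99 in the F test (99 and 1), and was 0 between the doses. The submitters' criteria gave 187, 145, 10 and 229 clusters. The cause was not tested. Of the member differences, 537 alternatives kept the direction and 36 in 11 results reversed it, all in differences that did not pass. Covariates, chosen after seeing the data apart from the choroid plexus level, gave for that level -0.28 (Gad2 at 1% LA), -0.13 (Gad2 at 10% LA), 0.15 (Gad2 between doses) and -0.0573 (Gabbr1 at 1% LA); for the astrocyte level -0.0428 (Gad2 at 10% LA), and between doses -0.0301 (Slc6a11) and -0.0603 (Abat); and for the interneuron level 0.0270 (Slc32a1 at 10% LA) and -0.00672 (Abat between doses). Quantile scaling gave 0.0119 (Gad2 between doses), -0.0296 (Gabbr1 at 1% LA) and -0.0233 (Gabbr2 at 10% LA), median centring 0.01 (Slc32a1 at 10% LA) and array weights 0.0396 (Gad2 between doses). Between doses the series matrix gave 0.00887 (Gad2) and -0.0231 (Abat), whole or without vehicle replicate 1 or 3. Without vehicle replicate 1 it gave -0.0344 (Slc32a1 at 1% LA) and 0.00472 (Gabbr1 at 10% LA), and without vehicle replicate 3 -0.0360 (Slc32a1 at 1% LA). Leaving out 1 array of the signal table, the differences ran from -0.12 to 0.02 (Gad1 at 1% LA), -0.0667 to 0.18 (Gad2 at 1% LA), -0.0867 to 0.36 (Gad2 at 10% LA), -0.17 to 0.28 (Gad2 between doses), -0.0833 to 0.12 (Slc32a1 at 10% LA), -0.0933 to 0.0783 (Abat between doses), -0.0317 to 0.0983 (Gabbr1 at 1% LA) and -0.0183 to 0.18 (Gabbr2 at 10% LA). Slc6a13 was below the 60th percentile filter and has no value there, and the fit of only the 2 groups compared has no F test. With 3 arrays per group, the median SE of 0.21 limits what can be told apart.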
